A study of Saccharomyces cerevisiae with 8 samples.

Results

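The genes described here are the nuclear COX, QCR and ATP genes of Saccharomyces cerevisiae, which encode or help to build cytochrome bc1, cytochrome c oxidase and the mitochondrial ATP synthase. They were chosen by name: a target had to have a nuclear systematic name and an R64 standard symbol made of COX, QCR or ATP and a number, with a letter A or B allowed for isoforms. The rule found 45 genes among the 6713 targets of the deposited tables, on 14 chromosomes. By their known function, 29 encode subunits and 16 encode assembly or expression factors. The subunit genes comprise 6 of cytochrome bc1, 10 of cytochrome c oxidase, 5 of the F1 part of ATP synthase and 8 of its Fo part and stalk, and the factors comprise 10 for cytochrome c oxidase and 6 for ATP synthase.

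Cytochrome bc1 passes electrons from ubiquinol to cytochrome c, cytochrome c oxidase passes them on to oxygen, and ATP synthase uses the resulting proton gradient to make ATP. Each complex joins subunits imported from the cytosol to core subunits made inside the mitochondrion, and dedicated factors insert heme and copper or put the parts together. In this yeast glucose represses most of the subunit genes, the HAP complex activates them through CCAAT elements in their promoters, and sporulation depends on respiration.

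Poly(A) RNA was sequenced from 8 cultures or culture aliquots of BY4743, a diploid laboratory strain whose genotype is labelled wild type in every group. Cells of the state called prion here carry the natural [SMAUG+] prion, an inherited form of the RNA-binding protein Vts1, and are untreated per the labels, whereas cells of the state called cured underwent selective curing of that prion. The groups are cured SPO, prion SPO, cured preSPO and prion preSPO, with 2 libraries each: a preSPO library holds cells after 48 h of growth to saturation in preSPO medium, and an SPO library holds cells moved from such a culture into SPO medium, in which sporulation is induced, for 14 h. Overexpression and deletion of VTS1 are mentioned in the series' design text but in no sample label.

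The estimated counts of a library summed to between 4650288 and 71684771, and the smallest count of any member in any library was 27. All 45 members passed the filter on low counts. Libraries of a group were not duplicates, with a chi-square per degree of freedom of 34.9 to 160 between their counts, but nothing states that they came from separate cultures, so p-values measure the spread between these libraries only. MET17, for which BY4743 is known to be heterozygous, had 447 and 13 counts in cured SPO, 1363 and 1 in prion SPO, 0 and 1 in cured preSPO and 3207 and 3867 in prion preSPO libraries. Libraries of a heterozygote should all count it, so the libraries with 0 to 13 counts go against a genotype shared by every group, and in preSPO medium the prion state and MET17 cannot be told apart. If prion cells hold MET17 and cured cells lack it, prion SPO replicate 2 and cured SPO replicate 1 go against their labels. Results without these libraries are given below for several genes and medians. VTS1 was counted in every library, at 11.2 to 15.9 CPM (counts scaled to the effective library size) in SPO and 29.1 to 61.3 CPM in preSPO medium. Of 7 genes known to be repressed in a diploid, STE2, STE3, HO, MF(ALPHA)1 and MF(ALPHA)2 were counted in every library, and STE3 and HO were called higher in SPO medium in both states; MFA1 and MFA2, with effective lengths of 19.9 and 21 bases, had too few counts to be tested.

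Per coding length, subunit genes were expressed far above assembly factor genes in every library, and the gap was wider in SPO medium. The median level of the 29 subunit genes was 796 and 697 TPM (abundance per effective length) in the cured SPO libraries and 946 and 1020 TPM in prion SPO, against 390 and 411 TPM in cured preSPO and 425 and 584 TPM in prion preSPO. That of the 16 factor genes was 21.9 and 14.2 TPM in cured SPO and 26.3 and 20.7 TPM in prion SPO, against 29.1 and 24.8 TPM in cured preSPO and 28.3 and 24.0 TPM in prion preSPO. Both SPO groups thus lay above both preSPO groups for the subunits. For the factors, cured SPO lay below both preSPO groups, and prion SPO overlapped with them. ATP10, a chaperone for subunit 6 of ATP synthase, was the lowest member in all 4 SPO libraries, at 1.96 to 3.99 TPM. ATP15, the epsilon subunit of F1, was the highest member in those libraries, at 6750 to 10800 TPM. The level of ATP15 rests on a short effective length of 45.8 bases, and 12 members have an effective length under 100, so the order of levels among short genes is uncertain. Together the members took 2.08% and 2.12% of the estimated counts in cured SPO and 2.41% and 2.62% in prion SPO, against 0.799% and 0.84% in cured preSPO and 0.922% and 1.17% in prion preSPO libraries.

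**Figure D1:**
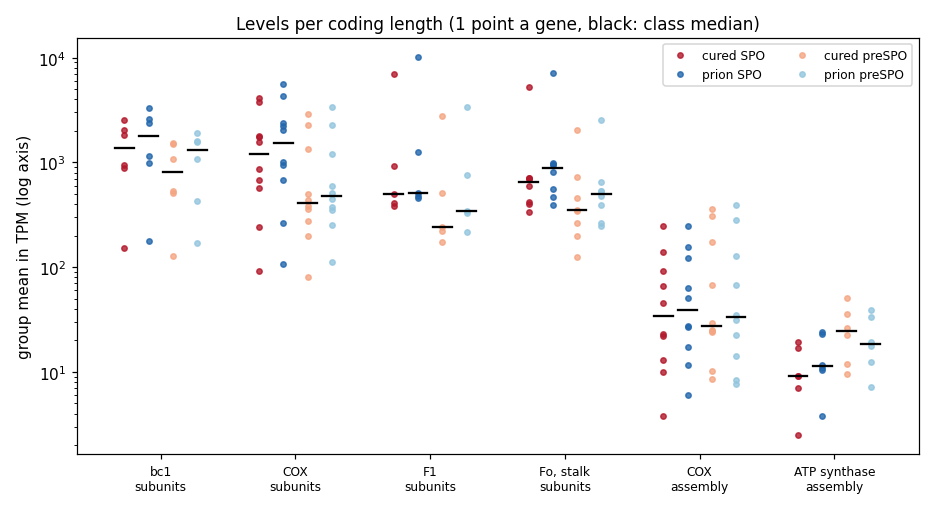
Group mean level of each member in TPM on a log axis, by role class and group, with 1 point a gene and a black bar at the class median. The subunit classes lie above the assembly factor classes, and in each of the 4 subunit classes the SPO medians lie above the preSPO median of the same state.

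The first comparison asks how these genes differed after the move from preSPO to SPO medium in each state. The move comprises both the change of medium and a further 14 h, which cannot be told apart here. In cured cells 32 members rose, 4 fell and 9 did not pass the test; in prion cells 30 rose, 1 fell and 14 did not pass. A gene was called where edgeR's quasi-likelihood test gave an adjusted p under 0.05 over the 6346 genes tested, and the move changed much of the transcriptome: 57.2% of these genes were called in cured cells (28.6% higher) and 53.3% in prion cells (26.2% higher). Of the subunit genes, 27 of 29 were called higher in cured and 26 of 29 in prion cells. Their median log2 fold change was 1.84 in cured and 1.45 in prion cells, against 0.03 and 0 over all genes tested. Of the 16 factor genes, 5 rose and 3 fell in cured cells and 4 rose and none fell in prion cells, with medians of -0.09 and 0.11. These factor counts depend on the scaling. With library size alone 3 were higher and 6 lower in cured cells and 4 higher and 1 lower in prion cells. That scaling called 1081 of all 6346 genes higher and 2495 lower in cured cells, and 1210 higher and 1897 lower in prion cells. On log2 TPM 2 factor genes were higher and 10 lower in cured cells and 2 higher and 3 lower in prion cells. Of all genes, 549 were higher and 3464 lower in cured cells on that scale, and 688 and 2496 in prion cells. On log2 TPM, 19 subunit genes were called higher and 2 lower in each state. The calls of both states overlapped: 30 members rose in both, COX5B fell in both, QCR9 and COX14 rose and ATP10, ATP11 and ATP25 fell with a call in cured cells only, and whether those differ between states is tested below.

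These folds are relative to the other transcripts of a library. On log2 TPM, the median of all genes moved to -0.89 in cured and -0.56 in prion cells, and with library size alone to -0.37 and -0.17. The median of the subunits less that of all genes changed little, at 1.81 in cured and 1.45 in prion cells with TMM, 1.82 and 1.44 with library size, and 1.74 and 1.39 on log2 TPM. TAR1, an open reading frame within ribosomal DNA, took 10.6% to 14.8% of the counts of the SPO libraries, against 3.18% to 8.22% in the preSPO libraries, and its part in these results was not tested. In a culture, fewer cells of a kind and less RNA per cell cannot be told apart.

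**Figure D2:**
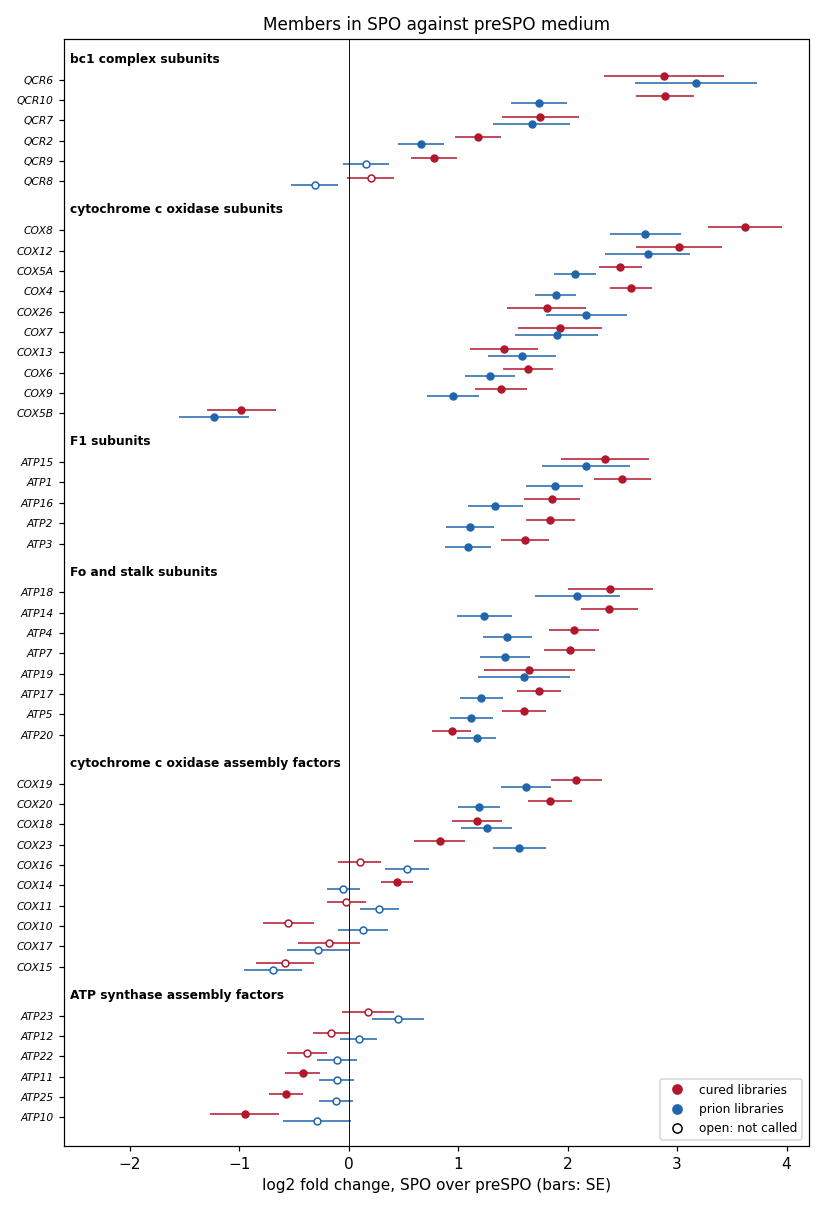
Log2 fold change of each member in SPO over preSPO medium with its SE, for cured (red) and prion libraries (blue), by role class; open points did not pass the test. Every F1, Fo and stalk subunit lies right of 0 in both states, COX5B is the only subunit with filled points left of 0, and the assembly factors spread to both sides.

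In cytochrome bc1, 5 of the 6 subunit genes rose in cured and 4 in prion cells, with log2 fold changes from 0.20 to 2.89 in cured and -0.31 to 3.17 in prion cells. QCR6, the acidic hinge subunit, had 1350 and 2700 CPM in cured SPO and 2010 and 2600 CPM in prion SPO, against 185 and 365 CPM in cured preSPO and 141 and 369 CPM in prion preSPO libraries. All SPO libraries were higher than all preSPO libraries, and replicate 2 was the higher one in each group. QCR6 rose by a log2 fold change of 2.88 (SE 0.55; edgeR, adjusted p = 0.0023) in cured and 3.17 (SE 0.557, adjusted p = 0.00165) in prion cells. QCR8, a small subunit near the ubiquinone site, was the exception, with 354 and 468 CPM in cured SPO and 340 and 425 CPM in prion SPO, against 345 and 371 CPM in cured preSPO and 455 and 495 CPM in prion preSPO libraries. Its groups overlapped in cured cells, where the log2 fold change was 0.20 (adjusted p = 0.447), and not in prion cells, where it was -0.31 (adjusted p = 0.243); on log2 TPM the values were -0.80 and -0.94. QCR9 was called higher in cured cells at 0.78 (adjusted p = 0.0125) and had 0.16 (adjusted p = 0.554) in prion cells, and on log2 TPM the values turned to -0.19 in cured and -0.47 in prion cells. The call of QCR9 was lost without cured SPO replicate 2 (adjusted p = 0.0512) or cured preSPO replicate 2 (adjusted p = 0.104).

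In cytochrome c oxidase, 9 of the 10 subunit genes rose in both states and COX5B fell in both. COX8, a small membrane subunit, had the largest mean rise over both states, with 501 and 517 CPM in cured SPO and 538 and 567 CPM in prion SPO, against 41.5 and 41.1 CPM in cured preSPO and 53.6 and 116 CPM in prion preSPO libraries. The SPO libraries lay close together, whereas the prion preSPO libraries differed more than 2-fold. Its log2 fold change was 3.62 (SE 0.34; edgeR, adjusted p = 7.03e-05) in cured and 2.71 (SE 0.325, adjusted p = 0.00024) in prion cells, or 12.3-fold and 6.52-fold. COX12, a subunit on the intermembrane space side, followed with 3.02 in cured and 2.73 in prion cells. The remaining risers other than COX5A (COX4, COX6, COX7, COX9, COX13 and COX26) had log2 fold changes of 1.39 to 2.58 in cured and 0.95 to 2.17 in prion cells.

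COX5A and COX5B encode alternative forms of subunit 5, of which COX5A is known as the form of aerobic cells and COX5B as the form of cells short of oxygen, where the heme-dependent repressor Rox1 no longer holds it down. They changed in opposite directions. COX5A had 688 and 444 TPM in cured SPO and 688 and 681 TPM in prion SPO, against 220 and 176 TPM in cured preSPO and 254 and 246 TPM in prion preSPO libraries. COX5B had 97.7 and 84.4 TPM in cured SPO and 114 and 103 TPM in prion SPO, against 351 and 365 TPM in cured preSPO and 282 and 472 TPM in prion preSPO libraries. The more abundant form was therefore COX5A in all 4 SPO libraries and COX5B in all 4 preSPO libraries. COX5B made up 14.2% ± 2.50 of the pair in cured SPO, 13.6% ± 0.776 in prion SPO, 64.5% ± 4.27 in cured preSPO and 59.2% ± 9.28 in prion preSPO (SD, n = 2 each). In CPM, COX5A rose with a log2 fold change of 2.48 (SE 0.196; edgeR, adjusted p = 3.29e-05) in cured and 2.07 (SE 0.193, adjusted p = 7.48e-05) in prion cells. COX5B fell with -0.98 (SE 0.317, adjusted p = 0.0267) in cured and -1.23 (SE 0.319, adjusted p = 0.011) in prion cells.

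The fall of COX5B was near the threshold, and its direction was the same under every alternative run. Its call in cured cells was lost without cured SPO replicate 1 (-0.81, adjusted p = 0.111), without cured preSPO replicate 2 (-0.83, adjusted p = 0.112) and without both libraries in doubt from MET17 (-0.80, adjusted p = 0.148). Its call in prion cells was lost without prion SPO replicate 1 (-1.20, adjusted p = 0.0611) or replicate 2 (-1.26, adjusted p = 0.0554), and its value there was -0.61 without prion preSPO replicate 2 and -1.66 without replicate 1. On log2 TPM, COX5B had -1.97 in cured and -1.75 in prion cells.

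CYC1 and CYC7, the aerobic and hypoxic forms of cytochrome c, are another such pair, chosen after their values were seen. The ratio of CYC1 to CYC7 was 2.80 and 1.94 in cured SPO and 2.13 and 2.11 in prion SPO, against 0.18 and 0.204 in cured preSPO and 0.236 and 0.156 in prion preSPO libraries. As for COX5A and COX5B, the ratio lay on opposite sides of 1 in the 2 media, in all 8 libraries. CYC1 rose in both states, with log2 fold changes of 2.68 (adjusted p = 4.87e-05, edgeR) in cured and 1.91 (adjusted p = 0.000218) in prion cells. CYC7 fell in prion cells with -1.62 (adjusted p = 0.00566) and had -0.82 in cured cells, which did not pass (adjusted p = 0.0777); the cured value was -0.46 without cured SPO replicate 1 and -1.37 without replicate 2.

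**Figure D3:**
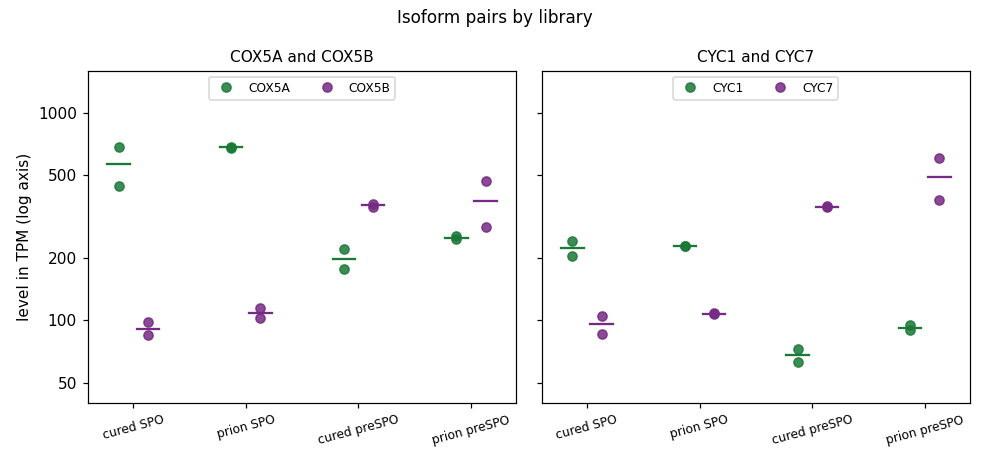
Levels of COX5A and COX5B (left) and of CYC1 and CYC7 (right) in TPM on a log axis, with 1 point a library and a bar at the group mean. In both pairs the aerobic form (green) lies above the hypoxic form (purple) in the SPO groups and below it in the preSPO groups.

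Promoter stretches of the COX5 pair, of COX8, which had the largest mean rise in cytochrome c oxidase, and of QCR8, which was called in neither state, are shown because these genes share a short element and responded differently. In the R64 RefSeq genome, the bases 300 to 101 before each start codon read as follows, on the strand of the gene, with capitals for CCAAT or ATTGTT, the core letters of HAP and Rox1 sites, on either strand.
COX5A, chrXIV:531425-531624, plus strand: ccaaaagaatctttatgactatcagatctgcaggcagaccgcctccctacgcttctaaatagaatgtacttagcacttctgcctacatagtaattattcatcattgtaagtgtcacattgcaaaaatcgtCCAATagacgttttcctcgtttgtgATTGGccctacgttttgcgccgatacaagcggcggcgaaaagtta
COX5B, chrIX:154922-155121, plus strand: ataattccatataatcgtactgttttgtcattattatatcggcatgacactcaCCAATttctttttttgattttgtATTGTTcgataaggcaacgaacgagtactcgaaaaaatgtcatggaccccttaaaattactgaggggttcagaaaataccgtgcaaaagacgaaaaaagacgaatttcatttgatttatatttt
COX8, chrXII:910066-910265, minus strand: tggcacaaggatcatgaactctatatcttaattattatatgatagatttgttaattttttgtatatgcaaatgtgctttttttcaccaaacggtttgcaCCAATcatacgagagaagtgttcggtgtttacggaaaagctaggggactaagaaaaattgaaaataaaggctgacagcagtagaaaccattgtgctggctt
QCR8, chrX:106134-106333, plus strand: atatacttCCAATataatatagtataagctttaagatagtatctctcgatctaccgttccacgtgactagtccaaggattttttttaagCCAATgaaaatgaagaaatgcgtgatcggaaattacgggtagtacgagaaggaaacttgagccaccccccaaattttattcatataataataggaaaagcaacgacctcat
Nearer the start codon, the 30 bases from 97 to 68 before it hold further matches in the COX5 pair.
COX5A, chrXIV:531628-531657, plus strand: agAACAATcaattaaataagaaccatcagt
COX5B, chrIX:155125-155154, plus strand: aatgactgttgcattaAACAATagaCCAAT
Within 300 bases, COX5A has CCAAT starting 170 bases before the start codon and, on the opposite strand, 145 bases before it, with ATTGTT on the opposite strand at 95. COX5B has CCAAT at 247 and 72 and ATTGTT at 224 and, on the opposite strand, 81. COX8 has CCAAT at 201, and QCR8 has it at 292 and 211 and ATTGTT at 91. The 300-base window of COX8 overlaps 1 other annotated gene, and those of COX5A, COX5B and QCR8 overlap none.

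CCAAT was found on either strand in the 300 bases before the start codon of 27 of the 29 subunit genes (93.1%), of 8 of the 16 factor genes (50%) and of 41.8% of 5988 nuclear coding targets. The longer ACCAAT, which contains CCAAT, was found in 16 subunit genes (55.2%), 2 factor genes (12.5%) and 15.4% of all. ATTGTT was found in 17 subunit genes (58.6%), 5 factor genes (31.2%) and 34.1% of all. The subunit genes without CCAAT in the window were COX4 and COX26, and both rose: COX4, a subunit on the matrix side, had 2.58 in cured and 1.89 in prion cells, and COX26, a small subunit, 1.81 and 2.17. COX5B and QCR8, which did not rise, each had CCAAT more than once, as did subunit genes that rose, among them QCR6, COX5A and ATP2. All of these are matches of letters in a window and not bound sites, and no test was made on them. The window was counted back from the start codon, without regard to transcript starts or to introns before that codon. It therefore need not reach the promoter, and a lack of CCAAT in it, as for COX4, does not show that the promoter lacks one.

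All 13 ATP synthase subunit genes of the rule rose in both states. In F1, ATP15 had 920 and 1470 CPM in cured SPO and 1270 and 1620 CPM in prion SPO, against 222 and 249 CPM in cured preSPO and 195 and 446 CPM in prion preSPO libraries. ATP3, the gamma subunit that turns inside the F1 head, had 1100 and 1000 CPM in cured SPO and 1120 and 1160 CPM in prion SPO, against 357 and 331 CPM in cured preSPO and 465 and 610 CPM in prion preSPO libraries. For both genes every SPO library was above every preSPO library. The alpha subunit ATP1, the catalytic beta subunit ATP2 and the delta subunit ATP16 had log2 fold changes of 1.84 to 2.50 in cured and 1.11 to 1.88 in prion cells. ATP15 rose by 2.34 (SE 0.405; edgeR, adjusted p = 0.0014) in cured and 2.17 (SE 0.402, adjusted p = 0.00218) in prion cells, and ATP3 rose by 1.61 (SE 0.217, adjusted p = 0.000407) in cured and 1.09 (SE 0.214, adjusted p = 0.00303) in prion cells.

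Among the Fo and stalk genes, ATP18, a small membrane subunit, had 599 and 1060 CPM in cured SPO and 809 and 1000 CPM in prion SPO, against 138 and 177 CPM in cured preSPO and 142 and 284 CPM in prion preSPO libraries. Its log2 fold change was 2.39 (SE 0.39; edgeR, adjusted p = 0.00105) in cured and 2.09 (SE 0.386, adjusted p = 0.00217) in prion cells. ATP20, subunit g, which links ATP synthase into dimers, had the smallest mean rise of its class, with 448 and 517 CPM in cured SPO and 554 and 552 CPM in prion SPO, against 246 and 257 CPM in cured preSPO and 240 and 253 CPM in prion preSPO libraries. Replicates of ATP20 lay close together and its groups did not overlap. It rose by 0.94 (SE 0.178, adjusted p = 0.00218) in cured cells, which turned to -0.05 on log2 TPM, and by 1.17 (SE 0.179, adjusted p = 0.000802) in prion cells. ATP4, ATP5, ATP7, ATP14, ATP17 and ATP19 ranged from 1.60 to 2.38 in cured and 1.12 to 1.60 in prion cells. Subunit genes of either length rose: the 18 subunit genes of 300 coding bases or more had medians of 1.80 in cured and 1.32 in prion cells with 17 called higher in each, and the 11 shorter ones 1.93 and 1.90, against 0.61 and 0.57 over all 270 genes under 300 bases.

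The assembly factors for cytochrome c oxidase divided into genes that rose and genes that did not pass. COX18, COX19, COX20 and COX23 rose in both states. COX19, which takes part in copper delivery in the intermembrane space, had 35.1 and 28.4 CPM in cured SPO and 25.8 and 28.1 CPM in prion SPO, against 7.61 and 7.36 CPM in cured preSPO and 7.68 and 9.80 CPM in prion preSPO libraries. It rose by 2.08 (SE 0.233; edgeR, adjusted p = 0.000166) in cured and 1.62 (SE 0.231, adjusted p = 0.000561) in prion cells. COX18 and COX20, which act on subunit 2, rose by 1.17 and 1.84 in cured and 1.26 and 1.19 in prion cells, and COX23, a relative of the copper chaperone COX17, by 0.83 in cured and 1.56 in prion cells, of which the cured value turned to -0.14 on log2 TPM.

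COX15, which makes heme A, lay at the other end. It had 114 and 101 CPM in cured SPO and 101 and 113 CPM in prion SPO, against 199 and 122 CPM in cured preSPO and 203 and 141 CPM in prion preSPO libraries. Every SPO library was below every preSPO library, but the preSPO replicates differed widely and neither -0.58 (SE 0.264, adjusted p = 0.0897) in cured nor -0.69 (SE 0.264, adjusted p = 0.0541) in prion cells passed the test by edgeR. COX10, which makes the heme O that COX15 uses, had -0.55 in cured and 0.13 in prion cells, of which the prion value turned to -0.42 on log2 TPM, and the copper chaperone COX17 had -0.18 and -0.28, also without a call. COX11 and COX16 did not pass in either state, and COX14 was called in cured cells at 0.44 (adjusted p = 0.0334), a value that turned to -0.55 on log2 TPM and lost its call with DESeq2 (adjusted p = 0.0519) and without any 1 of the 4 cured or 2 prion SPO libraries (adjusted p 0.0727 to 0.134).

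None of the 6 ATP synthase factor genes rose with a call in either state. ATP10 had 6.12 and 6.06 CPM in cured SPO and 7.77 and 7.90 CPM in prion SPO, against 14.4 and 9.40 CPM in cured preSPO and 10.5 and 8.75 CPM in prion preSPO libraries. It fell by 0.95 on the log2 scale (SE 0.313; edgeR, adjusted p = 0.0285) in cured cells, and its prion value of -0.29 (adjusted p = 0.445) did not pass. ATP11, the chaperone of the beta subunit, had -0.42 (adjusted p = 0.0474) and ATP25, which stabilizes the message of subunit 9, -0.57 (adjusted p = 0.0126) in cured cells, with -0.11 and -0.12 in prion cells. ATP23, a protease and chaperone for subunit 6, had the highest mean change of the 6, with 16.1 and 17.3 CPM in cured SPO and 21.3 and 22.2 CPM in prion SPO, against 12.0 and 17.3 CPM in cured preSPO and 16.8 and 15.2 CPM in prion preSPO libraries, and no call at 0.18 in cured and 0.45 in prion cells, which turned to -0.70 and -0.16 on log2 TPM. The calls of ATP10, ATP11 and ATP25 depended on single libraries. The call of ATP10 was lost without cured SPO replicate 1 (adjusted p = 0.0697), cured SPO replicate 2 (adjusted p = 0.111), prion SPO replicate 1 (adjusted p = 0.0511) or cured preSPO replicate 1 (-0.63, adjusted p = 0.188), that of ATP25 without cured SPO replicate 2 (adjusted p = 0.0997) or cured preSPO replicate 1 (adjusted p = 0.0661), and that of ATP11 without any 1 of the 4 cured or 2 prion SPO libraries (adjusted p 0.0788 to 0.21) or with DESeq2 (adjusted p = 0.0593). With cured SPO replicate 1 and prion SPO replicate 2 left out together, no member was called lower in cured cells, and ATP10, ATP11 and ATP25 had -0.96, -0.38 and -0.71.

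Genes of the same pathway outside the naming rule are given for comparison. Beside their counts stand the shares of all genes tested: 28.6% higher and 28.6% lower in cured cells, and 26.2% and 27.1% in prion cells. Of 12 other nuclear genes of the respiratory chain, 10 rose in each state, none fell in cured and 1 (CYC7) fell in prion cells. NDE2, an external NADH dehydrogenase, led them with 6.85 in cured and 6.79 in prion cells, and SDH1, the flavoprotein of succinate dehydrogenase, had 3.81 and 3.31. The 35 further biogenesis factors for bc1 and cytochrome c oxidase included genes that rose and genes that fell, with 16 higher and 4 lower in cured and 16 higher and 5 lower in prion cells. Among them CBP4 rose by 3.02 in cured and 2.84 in prion cells, and CBP3, which acts in cytochrome b synthesis, fell by 1.12 and 1.24. Of 9 further ATP synthase genes, 7 rose in each state, 2 fell in cured and none in prion cells: TIM11, the dimer subunit e that the symbol leaves outside the rule, had 4.08 and 3.27, and the ATPase inhibitors INH1 and STF1 had 3.73 and 3.46 in cured and 3.03 and 2.85 in prion cells. Of 8 heme synthesis genes, 5 rose and 1 fell in cured and 3 rose and 1 fell in prion cells, with HEM1, the first enzyme, at 1.70 and 1.46 and HEM2 at -0.63 and -0.66.

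All 6 mitochondrially encoded subunits that were tested rose in both states, with log2 fold changes of 2.92 to 5.05 in cured and 2.47 to 6.42 in prion cells. ATP8 had no counts and was not tested. COX1 had 1340 and 1590 CPM in cured SPO and 1010 and 967 CPM in prion SPO, against 115 and 118 CPM in cured preSPO and 196 and 161 CPM in prion preSPO libraries. Yeast mitochondrial messages lack long poly(A) tails and the libraries were enriched with oligo(dT), so these values need not follow the amounts in the cell.

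Among 14 transcription regulators of respiratory genes, 3 rose and 2 fell in cured and 4 rose and 2 fell in prion cells. Of all genes tested, 28.6% rose and 28.6% fell in cured cells, and 26.2% rose and 27.1% fell in prion cells. The counts of this list are thus not read as a result about regulators. CAT8 and ADR1, activators of growth on non-fermentable carbon, rose by 2.23 and 3.11 in cured and 2.05 and 2.26 in prion cells. MIG1, a glucose repressor, fell by 1.89 in cured and 2.40 in prion cells. RTG3 was the other regulator called lower in both states, with -1.38 in cured and -0.70 in prion cells. HAP4, the regulated subunit of the HAP complex, was not called in either state: it had 432 and 536 CPM in cured SPO and 383 and 456 CPM in prion SPO, against 400 and 381 CPM in cured preSPO and 641 and 543 CPM in prion preSPO libraries. Its log2 fold change was 0.31 (adjusted p = 0.226, edgeR) in cured and -0.50 (adjusted p = 0.0706) in prion cells, and on log2 TPM it was -0.68 (adjusted p = 0.0411, limma) and -1.11 (adjusted p = 0.00161). ROX1 had 0.81 (adjusted p = 0.00458) in cured cells, which turned to -0.17 on log2 TPM, and 0.11 (adjusted p = 0.621) in prion cells, which turned to -0.49.

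The other comparison asks how cured cells differed from prion cells in each medium. In SPO medium none of the 45 members was called by edgeR, where 0.0315% of all genes were, and none had an unadjusted p under 0.05, where 2.43% of all genes did. The members' median log2 fold change was -0.09, from -0.51 for COX10 to 0.24 for COX14. DESeq2 called no member either, where it called 0.236% of all genes. COX10 had 18.4 and 14.1 CPM in cured SPO, against 23.4 and 22.0 CPM in prion SPO libraries, without overlap. The libraries that MET17 puts in doubt are both in this comparison, and the sign of the medians rests on them. The members' median was 0.02 without either one of them and 0.12 without both, and that of the subunits was -0.09 with all libraries and 0.21 without both. Of the 29 subunit genes, 9 lay above the median of all genes with all libraries and 24 without both.

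In preSPO medium none of the 45 members was called by edgeR, where 0.93% of all genes were, but 16 had an unadjusted p under 0.05, where 19.9% of all genes did, and DESeq2 called 10 lower in cured cells, where it called 4.22% of all genes lower. Subunit genes were mostly lower in cured cells: their median was -0.46 against 0 over all genes, and 25 of 29 were negative. Both cured libraries lay below both prion libraries for 18 of the 29, beside 23.9% of all genes. QCR10, a small bc1 subunit, had 77.8 and 73.8 CPM in cured preSPO, against 128 and 214 CPM in prion preSPO libraries, with a log2 fold change of -1.17 (SE 0.251; edgeR, adjusted p = 0.0766). ATP14, a stalk subunit, had 47.1 and 53.2 CPM in cured preSPO, against 79.6 and 138 CPM in prion preSPO libraries, and -1.12 (SE 0.251, adjusted p = 0.0778). For both genes the cured libraries lay close together and below the prion libraries, of which replicate 2 was far above replicate 1. The 16 factor genes had a median of 0.09.

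The size of this difference moved with the library left out, and most without prion preSPO replicate 1. The members' median in preSPO medium was -0.04, and that of the subunits -0.34, when only replicate 2 of the prion group was dropped. When only replicate 1 was dropped, these medians were -0.52 and -0.73. The median of all genes was 0.01 in either case. COX8 had -1.48, QCR10 -1.49 and ATP14 -1.46 with replicate 1 dropped, a fit in which replicate 2 alone stands for the prion group. COX8 had -0.37 without prion preSPO replicate 2. That library was above replicate 1 for 36 of the 45 members, by a median log2 gap of 0.80 for the 14 members under 300 bases and 0.26 for the 31 longer ones, where all genes under 300 bases had 0.47 and longer ones 0.01, and TAR1 took 8.22% of its counts, against 3.18% in replicate 1. The part of these in the result was not tested.

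**Figure D4:**
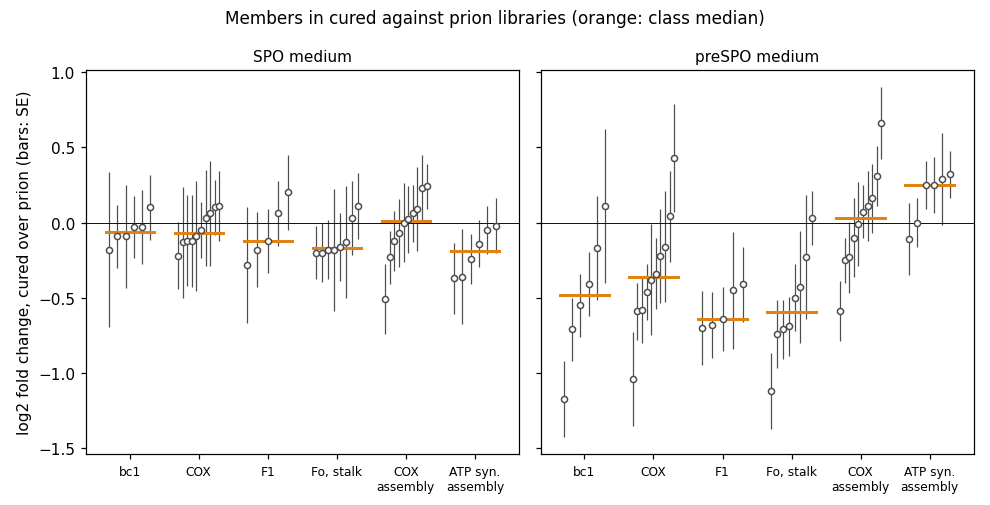
Log2 fold change of each member in cured over prion libraries with its SE, in SPO (left) and preSPO medium (right), by role class, with the class median in orange; no member passed the test in either medium. In SPO medium the class medians lie between -0.19 and 0.01, and in preSPO medium the medians of the 4 subunit classes lie between -0.64 and -0.36.

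Whether the response to SPO medium differed between the states was tested by the interaction, the cured minus the prion log2 fold change. No member was called by edgeR, where 0.0158% of all genes were, or by DESeq2, where 2.1% of all genes were. An unadjusted p under 0.05 by edgeR was found for 6 of the 45 members and for 12.5% of all genes. The median was 0.48 for subunit genes, 25 of 29 of which were positive, -0.27 for factor genes and 0.03 for all genes tested. QCR10 had 1.15 and ATP14 1.14, both with an adjusted p of 0.269, and COX5B had 0.25 (adjusted p = 0.853). Of the genes called in cured cells only, QCR9 had 0.62 (adjusted p = 0.425), COX14 0.49 (adjusted p = 0.39), ATP10 -0.66 (adjusted p = 0.562), ATP11 -0.31 (adjusted p = 0.597) and ATP25 -0.46 (adjusted p = 0.429), so a difference between states was not shown for any of them. Dropping prion preSPO replicate 1 gave ATP14 an interaction of 1.48 and the subunits a median of 0.64, and dropping replicate 2 gave a subunit median of 0.27. Without both libraries in doubt from MET17 the subunit median was 0.71, and no member was called.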

How the data were processed

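The submitters' processing notes name kallisto and build R64; the version, index and strand setting were not given in the sources used here. For tests, the estimated counts (expected counts) that the authors deposited were rounded. Deposited TPM values come from the same kallisto run by the authors, are per effective length and sum to 1000000 or 1000001. Lengths, per the file headers, equal the coding lengths of all 45 members in R64. No member overlaps another annotated gene or shares a 31-base stretch with another coding sequence; 2 members, ATP1 and COX20, have estimated counts more than 0.01 from a whole number, where 20.4% of all targets do. Of the 6713 targets, 687 were not in the RefSeq symbol table and could not be placed by symbol.

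edgeR 4.0.16 (glmQLFit, glmQLFTest, TMM, filterByExpr) in R 4.3.3 was fitted to all 8 libraries as 4 group means, with 4 residual degrees of freedom. Benjamini-Hochberg adjustment of the two-sided p-values ran over 6346 genes, and a call needs an adjusted p under 0.05. Folds are SPO over preSPO and cured over prion. SE is the size of the log2 fold change over the root of F. The script was tested on simulated data. Alternatives were other scalings, no filter, DESeq2 1.42.0, limma 3.58.1 on log2(TPM + 1), replicate blocks and left-out libraries. Members, lists and rules were chosen with earlier results of these data known. Any member may be named; full values go to COX5A, COX5B and the members of highest and lowest mean change of each role class, others being examples. Of other lists, genes were taken from the 4 of smallest p, with HAP4 and ROX1 always; CYC1, CYC7 and the genes repressed in a diploid stand outside that rule. The model has no replicate block.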

Additional observations from a re-analysis of the deposited data

How the results depend on the processing

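Subunit genes called higher in SPO medium kept that direction under the alternatives run, except QCR9 and ATP20 on log2 TPM in cured cells. With limma on log2(TPM + 1), 21 members were called higher and 12 lower in cured cells and 5 lower in prion cells. Of all 6346 genes, limma called 549 higher and 3464 lower in cured cells and 2496 lower in prion cells. With library size alone 7 members were lower in cured and 2 in prion cells, where 2495 and 1897 of all genes were. With DESeq2, 2 members were lower in prion cells, where 1787 of all genes were. It called 10 members lower in the preSPO comparison of states, where 268 of all genes were. Of the members and the genes recomputed from other lists (the 4 of smallest p of each, HAP4, ROX1, CYC7 and COX2), called values that turned sign, or turned from no call to a call of the other sign, did so on log2 TPM only, where the median of all genes is negative: in cured cells QCR8 -0.80, QCR9 -0.19, ATP20 -0.05, COX14 -0.55, COX16 -0.91, COX23 -0.14, SCO1 -0.01, HEM15 -0.05, HEM4 -0.35, HAP4 -0.68 and ROX1 -0.17, and in prion cells HEM4 -0.04. A further 30 values, called under neither setting, changed sign.

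Leaving out 1 library at a time gave 29 to 32 members higher and 1 to 5 lower in cured cells, 27 to 31 higher and 0 to 2 lower in prion cells, 0 to 5 called between states in preSPO medium, none in SPO medium and 0 to 1 in the interaction; where a group is then 1 library, it is assumed to vary like the others. With cured SPO replicate 1 and prion SPO replicate 2 left out together, 0 were lower in cured cells.

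Besides the losses given with the results, leaving out 1 library ended further calls. In prion cells QCR2 lost its call without either prion SPO library or prion preSPO replicate 1. COX9 lost it there without prion SPO replicate 2 or prion preSPO replicate 1, and ATP19 without prion SPO replicate 2. In cured cells ATP19 lost its call without cured preSPO replicate 1, and COX23 without cured SPO replicate 2 or cured preSPO replicate 1. Losses with both libraries in doubt from MET17 left out together are not listed in full.

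Read as cultures, the letters A and C in the descriptions pair same-numbered SPO and preSPO libraries within a state, but MET17 goes against this for cured replicate 1 and prion replicate 2. Differences between replicates correlated over genes by 0.39 between cured SPO and cured preSPO, 0.08 between prion SPO and prion preSPO, and -0.04 to 0.26 otherwise. The replicate block, as replicate number or as culture, gave 2 members lower in prion cells (COX5B and COX15), and as replicate number 2 in the preSPO comparison of states (QCR10, adjusted p = 0.0487, and ATP14, adjusted p = 0.0492, edgeR), where it called 2.24% of all genes against 0.93% without it; it moved no other count of members by over 1.5 times. A block by culture could not be fitted to the comparisons of states.

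Limits are the 2 libraries a group, the short coding length of many members, the lack of untranslated regions among the targets and the lower depth of cured SPO replicate 1.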

Other observations

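Members were higher in replicate 2 than in replicate 1 in 31 of 45 cases in cured SPO, 38 in prion SPO, 27 in cured preSPO and 36 in prion preSPO libraries. The median log2 gap between replicates 2 and 1 was 0.41, 0.30, 0.04 and 0.80 for the 14 members under 300 coding bases in these groups, and 0.16, 0.14, 0.12 and 0.26 for the 31 longer members. Over all genes under 300 bases it was 0.46, 0.14, 0.24 and 0.47 in the same groups, and over all genes of 300 bases or more it was between -0.01 and 0.01.

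In cured over prion SPO libraries, the 6 mitochondrially encoded subunits tested had a median log2 fold change of 0.98, all positive and none called by edgeR. For the 29 nuclear subunit genes the median in the same comparison was -0.09. Without prion SPO replicate 2 and cured SPO replicate 1, which MET17 puts in doubt, the medians were 1.40 for the mitochondrially encoded and 0.21 for the nuclear subunits. The difference between these lists was not tested.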
